A study of Amorphotheca resinae with 20 samples.

Results

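The comparison described here set mycelia of the fungus Amorphotheca resinae ZN1 treated with acetic acid against mycelia treated with formic acid. Its members were the 4 RNA sequencing libraries that the labels place in these treatments, 2 with acetic acid and 2 with formic acid, of 20 libraries in the whole series. All were wild-type mycelia grown at 28 °C from a spore inoculum in potato-dextrose medium and harvested at 4 h. Acetic acid was given at 2.0 g/L, which is 33.3 mmol/L, and formic acid at 4.0 g/L, which is 86.9 mmol/L. The doses thus differed 2-fold by mass and 2.61-fold by amount, and compound and dose cannot be told apart in any difference given here. A control for weak acids, labelled only as a control and taken at the same time from the same experiment, held 2 further libraries. The other libraries came from a furan experiment (furfural, 5-hydroxymethylfurfural, a control) and a phenolic aldehyde experiment (vanillin, 4-hydroxybenzaldehyde, syringaldehyde, a control). The study used 1 strain, and the labels do not say that duplicate libraries came from separate cultures, so p-values measure the spread between libraries, which may be technical.

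Acetic and formic acid are weak acids released when plant biomass is pretreated, and both slow the growth of fermenting microbes. A weak acid crosses the plasma membrane in its undissociated form and gives up its proton inside the cell, so that the cytoplasm acidifies and the anion accumulates. The 2 acids differ by the methyl group of acetic acid, in place of which formic acid has a hydrogen, and formic acid is the stronger acid. Fungi can activate acetate to acetyl-coenzyme A and use it as a carbon source through the glyoxylate cycle, whereas formate is oxidised to carbon dioxide by formate dehydrogenase. A. resinae, known as a fungus that grows on hydrocarbon fuels, is used to clear such inhibitors from pretreated biomass. The deposited identifiers are not paired with gene names, and 0 of 18830 matched a reference table of 9642 genes of another A. resinae strain, so genes are given by identifier with no function and no sequence.

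The 4 acid libraries held 16430097 to 20189482 reads, and the 2 control libraries 18275236 and 19657606. The formic acid libraries had the fewest identifiers with a read, 17747 and 17684 against 17863 and 17938 with acetic acid and 17879 and 17882 in the control. When each library was thinned to 16430097 reads, the expected numbers were 17679 and 17651 with formic acid, 17863 and 17907 with acetic acid, and 17850 and 17831 in the control. The formic acid libraries were lowest both before and after thinning. Libraries were also compared by the SD across genes of their log2 difference, over the 11223 genes with at least 10 CPM, the reads of a gene scaled to the total of its library, on average. Libraries of the same treatment differed with an SD of 0.262 for acetic acid, 0.207 for formic acid and 0.279 for the control. Acetic and formic acid libraries differed from each other with an SD of 0.526 to 0.590 over the 4 pairs. Acetic acid and control libraries differed by 0.579 to 0.726, and formic acid and control libraries by 0.601 to 0.671.

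The main question was which genes had different transcript levels under the 2 acids. Of 16714 genes tested, 4198 differed (25.1%) at an adjusted p under 0.05 (edgeR quasi-likelihood test, Benjamini-Hochberg adjustment). With acetic acid 1974 were higher (11.8%) and 2224 were lower (13.3%) than with formic acid. Most of these differences were small: 511 higher and 730 lower genes were under 1.5-fold, and a further 884 and 951 lay between 1.5-fold and 2-fold. At least 2-fold differences were seen in 579 genes that were higher with acetic acid (3.46% of genes tested) and 543 that were lower (3.25%). Among the largest, 18 genes were higher by 8-fold or more with acetic acid and 49 were lower by as much. Of the 11223 genes with at least 10 CPM on average over the acid and control libraries, 7938 of the 8004 that did not pass the test had a 95% interval within 2-fold either way, as did 1663 of the 3219 that passed. A test against a 2-fold difference (edgeR glmTreat) left 200 genes, 50 higher and 150 lower with acetic acid.

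The number of genes that differed fell whichever acid library was left out, and each such fit leaves that acid with 1 library. When acetic acid replicate 2 was left out, 2457 genes differed, and 2896 did so when replicate 1 was. For formic acid the counts were 2063 with replicate 1 left out and 1669 with replicate 2 left out. Without each of the acid libraries in turn, 1244 of the 4198 genes kept their call and direction every time. Of the 1122 genes that differed at least 2-fold, 698 did, of which 298 were higher and 400 lower with acetic acid. Which direction held more of the 2-fold genes also changed: without any 1 of the 4 acid libraries the lower genes were the more numerous, for example 435 higher and 495 lower without acetic acid replicate 2.

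**Figure D1:**
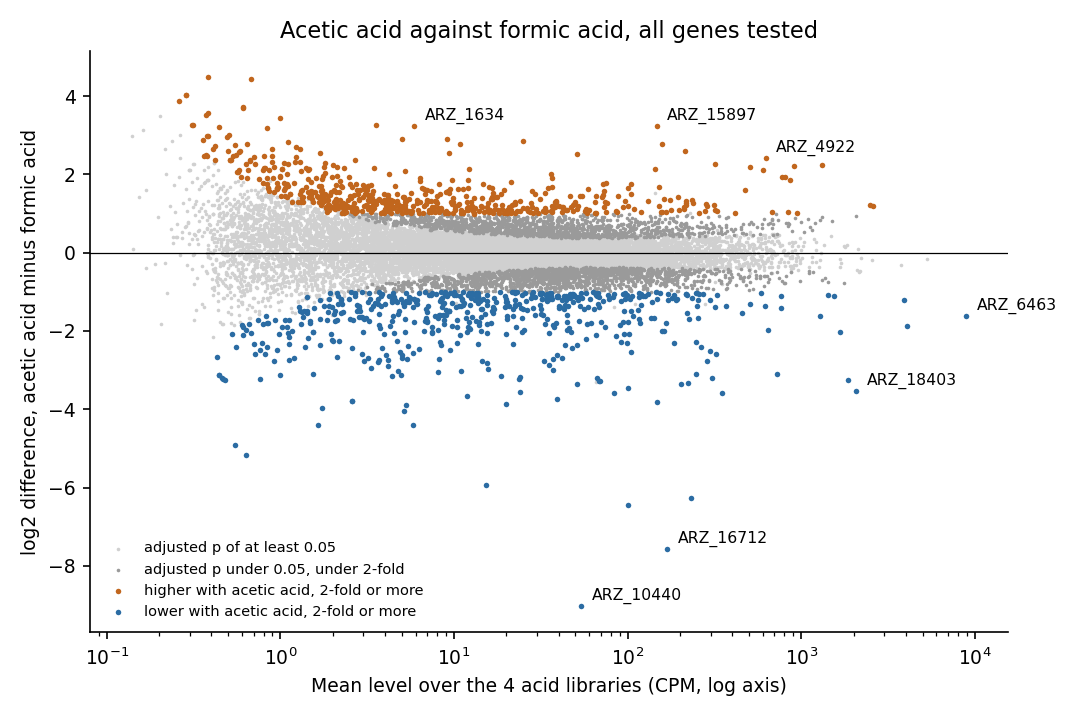
Each point is 1 of the 16714 genes tested, with its mean level over the 4 acid libraries (CPM, log axis) and its log2 difference, acetic acid minus formic acid. Orange points are the 579 genes at least 2-fold higher with acetic acid and blue points the 543 at least 2-fold lower; the blue points reach further from 0, down to −9.02 for ARZ_10440_T1.

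The direction of the differences went with the level of the gene. Levels here are CPM without correction for gene length. Among genes under 10 CPM over the acid libraries, 602 were higher and 378 lower with acetic acid. Among genes at 10 CPM or more over these 4 libraries, 1372 were higher and 1846 lower. This split had the same direction in each of the 13 alternative fits, for example 198 against 164 under 10 CPM and 517 against 790 above it without formic acid replicate 2. Of the 8892 genes between 10 and 100 CPM 28% differed, and of the 58 genes at 1000 CPM or more 29 did, of which 13 were higher and 16 lower with acetic acid. Below 1 CPM 9.54% of 1090 genes differed, where the median standard error was 0.634 on the log2 scale against 0.157 between 10 and 100 CPM.

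**Figure D2:**
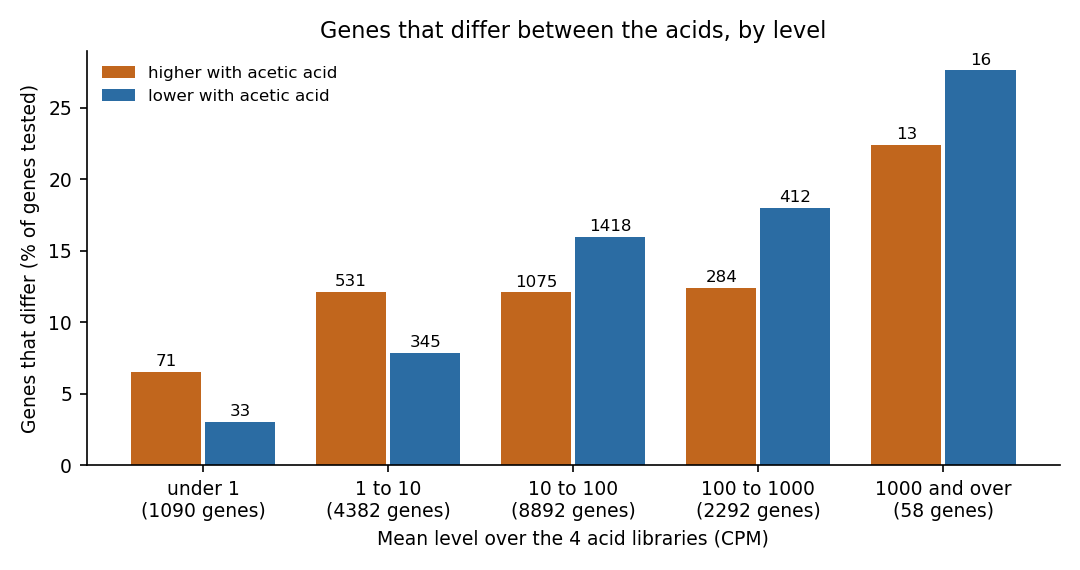
Bars give the percentage of genes tested that were higher (orange) or lower (blue) with acetic acid in each range of mean level over the 4 acid libraries (CPM), with the number of such genes above each bar. Below 10 CPM the orange bars are the taller, and from 10 CPM upward the blue bars are.

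Among genes with at least 10 CPM under 1 acid and no overlap between acids, the 2 largest differences were at genes almost silent under acetic acid and abundant under formic acid. ARZ_10440_T1 had 3 and 4 reads in the acetic acid libraries, 2511 and 1534 in the formic acid libraries and 677 and 1268 in the control. Corrected for library size (TMM), the summed reads are 543-fold lower with acetic acid, with an exact 95% interval of 263 to 1352 that covers counting error only. ARZ_16712_T1 was at 2.15 and 1.37 CPM with acetic acid, 351 and 320.0 CPM with formic acid and 83.8 and 119 CPM in the control. Its log2 difference was −7.58 ± 0.25 (SE; adjusted p = 1.55e-12, edgeR quasi-likelihood). For both genes the control libraries lay between the acids, above both acetic acid libraries and below both formic acid libraries. ARZ_2499_T1 stood differently: it was at 0.835 and 0.220 CPM with acetic acid, 9.69 and 12.5 CPM with formic acid, and 6.35 and 14.2 CPM in the control. Its formic acid and control libraries overlapped, and its summed reads, 18 against 410, are 21.4-fold lower with acetic acid after the same correction (exact 95% counting interval 13.4 to 36.5). Its fitted log2 difference of −4.41 was −5.61 without acetic acid replicate 1 and −3.72 without acetic acid replicate 2. Against the control, the 95% interval of its formic acid difference was −0.65 to 0.86 on the log2 scale.

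Genes higher with acetic acid reached smaller differences. ARZ_15897_T1 was at 282 and 251 CPM with acetic acid, 29.2 and 27.2 CPM with formic acid and 27.04 and 23.4 CPM in the control. The formic acid libraries thus lay just above the control, with a log2 difference from it of 0.16 (95% interval −0.15 to 0.47), and the acetic acid libraries stood 9.46-fold (7.59 to 11.8) above formic acid. ARZ_1634_T1 was at 10.3 and 11.0 CPM with acetic acid, 1.48 and 0.739 CPM with formic acid and 3.12 and 1.71 CPM in the control. It rose with acetic acid against the control (log2 2.15) and was lower with formic acid (−1.10; adjusted p = 0.0278 by edgeR's quasi-likelihood test). That second call did not hold when formic acid replicate 2 (0.241) or control replicate 1 (0.310) was left out. Its log2 difference between acids was 3.24, and 3.84 without formic acid replicate 1. ARZ_17146_T1 differed the other way about: acetic acid (16.6 and 21.0 CPM) and control (16.7 and 17.0 CPM) overlapped, and formic acid was at 2.19 and 3.30 CPM. The log2 difference between the acids was 2.78 (95% interval 2.30 to 3.27), and formic acid lay 2.63 below the control while acetic acid differed from it by 0.16 (−0.25 to 0.56).

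**Figure D3:**
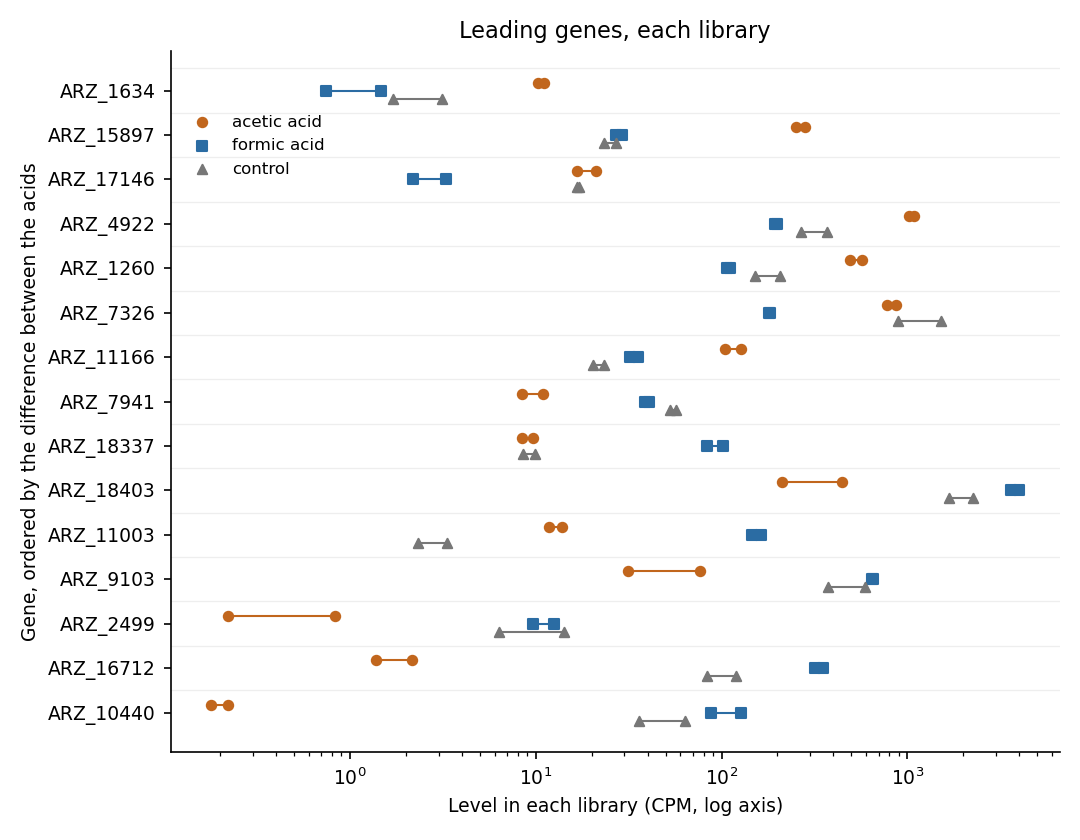
Each row is a gene, ordered by the log2 difference between the acids, and each point is 1 library (CPM, log axis; circles acetic acid, squares formic acid, triangles control; lines join the 2 libraries of a group). The genes were chosen so that the acetic and formic acid libraries do not overlap in any row. The control lies beside formic acid for ARZ_15897_T1, beside acetic acid for ARZ_18337_T1 and between the acids for ARZ_16712_T1.

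Large differences were also found among genes with at least 500 CPM under 1 of the acids. ARZ_4922_T1 was at 1014 and 1084 CPM with acetic acid, 194 and 199 CPM with formic acid and 267 and 370 CPM in the control, 5.34-fold higher with acetic acid (95% interval 4.12 to 6.93). ARZ_1260_T1 showed the same order of groups, at 489 and 568 CPM, 111 and 107 CPM, and 151 and 206 CPM. In the other direction, ARZ_18403_T1 was at 445 and 210 CPM with acetic acid, 3601 and 4006 CPM with formic acid and 1677 and 2245 CPM in the control. ARZ_9103_T1 was at 76.2 and 31.5 CPM with acetic acid, 650.0 and 642 CPM with formic acid and 372 and 590.0 CPM in the control. For the last pair of genes the acetic acid libraries differed from each other more than 2-fold, and the interval of the fold difference between acids was wide, 7.31 to 18.4 for ARZ_18403_T1 and 5.15 to 28.0 for ARZ_9103_T1. Without acetic acid replicate 1 their log2 differences were −4.18 and −4.36, in place of −3.54 and −3.59. Each of these 4 genes passed the test in all 13 alternative fits (highest adjusted p = 0.0190, for ARZ_9103_T1, edgeR quasi-likelihood or DESeq2).

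Set against the control, the acids could stand on the same side or on opposite sides, and each contrast is given by its own value because both use the same control libraries. Over the 579 genes at least 2-fold higher with acetic acid the median log2 difference from the control was 0.50 with acetic acid and −0.93 with formic acid. Over the 543 genes at least 2-fold lower with acetic acid it was −0.81 with acetic acid and 0.74 with formic acid, and over all genes tested −0.01 with either. The genes were chosen by the difference between the acids, so these medians describe the lists and are no test. The first list took 4.25% and 3.97% of the reads in the acetic acid libraries, 1.44% and 1.44% in the formic acid libraries and 3.995% and 3.10% in the control. The second took 2.69% and 2.43%, 7.5% and 8.07%, and 3.41% and 4.19% in the same order.

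Some genes moved the same way under both acids by different amounts. ARZ_11003_T1 rose from 2.33 and 3.31 CPM in the control to 11.8 and 13.9 CPM with acetic acid and to 145 and 162 CPM with formic acid. The rise was log2 2.18 with acetic acid and 5.76 with formic acid, and the difference between acids was −3.58 ± 0.17 (adjusted p = 1.85e-10, edgeR quasi-likelihood). ARZ_11166_T1 showed the reverse order: from 20.2 and 23.3 CPM in the control it reached 104 and 127 CPM with acetic acid and 35.5 and 32.1 CPM with formic acid. It was 3.42-fold higher with acetic acid than with formic acid (95% interval 2.75 to 4.24), and its rise with formic acid over the control (log2 0.63) did not pass the test without formic acid replicate 1 (edgeR quasi-likelihood adjusted p = 0.05). ARZ_7941_T1 fell with acetic acid to 11.0 and 8.40 CPM from 52.8 and 56.8 CPM in the control, and was at 38.6 and 40.7 CPM with formic acid, log2 −0.47 against the control. That last value lost its call without formic acid replicate 1 (0.143), formic acid replicate 2 (0.0816) or control replicate 2 (0.0741; edgeR quasi-likelihood adjusted p-values). ARZ_7326_T1 fell with formic acid, to 182 and 179 CPM from 1518 and 890.1 CPM in the control, and was at 869.7 and 781 CPM with acetic acid. Its acetic acid difference from the control was −0.54 (95% interval −0.97 to −0.12), and the call against the control was lost without either acetic acid library, either formic acid library or control replicate 1, with edgeR quasi-likelihood adjusted p-values from 0.0752 to 0.682.

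A minority of the genes that differed at least 2-fold had neighbouring numbers in their identifiers, at a share above that of all genes tested. That the numbering follows the order of genes in the genome is not stated in the sources used here. Of the 543 genes at least 2-fold lower with acetic acid, 96 (17.7%) had a next-numbered gene that was also at least 2-fold lower, while 5.50% of all genes tested had such a neighbour. For the 579 higher genes the count was 75 (13.0%), against 5.82% of all genes tested. In 11 places at least 3 consecutive numbers differed at least 2-fold in the same direction, 8 lower and 3 higher with acetic acid. How reads of near-identical copies were counted is not stated, so neighbours that are copies of each other would not be separate cases, which was not tested.

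The longest such sets had 6 members each. In the first, ARZ_16710_T1 was at 5.90 and 6.04 CPM with acetic acid, 513 and 401 CPM with formic acid and 225 and 303 CPM in the control, a log2 difference between acids of −6.25 ± 0.22. ARZ_16712_T1, described above, and ARZ_16713_T1 (2.86 and 2.25 CPM against 42.1 and 32.8 CPM, −3.87 ± 0.22) followed the same order of groups. ARZ_16714_T1 and ARZ_16715_T1 differed less, by −1.69 and −1.65, and ARZ_16711_T1, with 12 reads in all with acetic acid and 46 with formic acid, differed by −1.83. The call of ARZ_16711_T1 was lost without any 1 of the 4 acid libraries (edgeR quasi-likelihood adjusted p-values 0.101 to 0.133) and with all 20 libraries in one fit (0.0554). Differences in the second set, ARZ_6144_T1 to ARZ_6149_T1, ran from −1.17 for ARZ_6146_T1 to −2.26 for ARZ_6145_T1. Its members differed in where the control lay: ARZ_6144_T1 was at 17.1 and 16.0 CPM in the control, between 7.34 and 6.32 CPM with acetic acid and 22.7 and 25.7 CPM with formic acid, and ARZ_6146_T1 was at 30.2 and 39.1 CPM in the control, above 10.3 and 7.85 CPM with acetic acid and 20.5 and 20.2 CPM with formic acid. ARZ_6147_T1 missed the threshold without acetic acid replicate 1 (adjusted p = 0.0505, edgeR quasi-likelihood).

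Shorter sets, picked after their values were seen because they hold leading genes, showed other patterns. The consecutive set ARZ_10440_T1 to ARZ_10442_T1 is separated from ARZ_10438_T1 by the untested ARZ_10439_T1. ARZ_10438_T1 had 57 and 22 reads with acetic acid, 4794 and 2712 with formic acid and 1949 and 2922 in the control. Its log2 difference between acids was −6.45 (95% interval −7.67 to −5.23), and −7.36 without acetic acid replicate 1. ARZ_10441_T1 and ARZ_10442_T1 differed by −3.03 and −1.33, and ARZ_10439_T1 had 0 and 1 reads with acetic acid and 15 and 5 with formic acid, too few to be tested. In the set ARZ_18336_T1 to ARZ_18338_T1 the genes rose with formic acid. ARZ_18336_T1 rose least over the control, by log2 1.27. Its acetic acid difference from the control was −0.53 (95% interval −0.93 to −0.14), and −0.25 without control replicate 2. ARZ_18337_T1 was at 101 and 83.6 CPM with formic acid, 8.47 and 9.72 CPM with acetic acid and 8.57 and 9.94 CPM in the control. ARZ_18338_T1 was at 145 and 107 CPM, 13.8 and 12.1 CPM, and 9.15 and 14.2 CPM in the same order. For both, acetic acid and control libraries overlapped. Acetic acid minus control was −0.02 on the log2 scale for the first (95% interval −0.39 to 0.34) and 0.15 for the second (−0.29 to 0.58), while formic acid stood 3.32 and 3.43 above the control. A leading gene higher with acetic acid, ARZ_15897_T1, was followed by ARZ_15898_T1 (61 reads in all against 16) and ARZ_15899_T1 (104 against 45). These followers were higher with acetic acid by log2 2.00 and 1.29. The call of ARZ_15898_T1 was lost without any 1 of the 4 acid libraries (edgeR quasi-likelihood adjusted p-values 0.0858 to 0.152) and that of ARZ_15899_T1 without formic acid replicate 1 (0.0579) or 2 (0.0652).

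**Figure D4:**
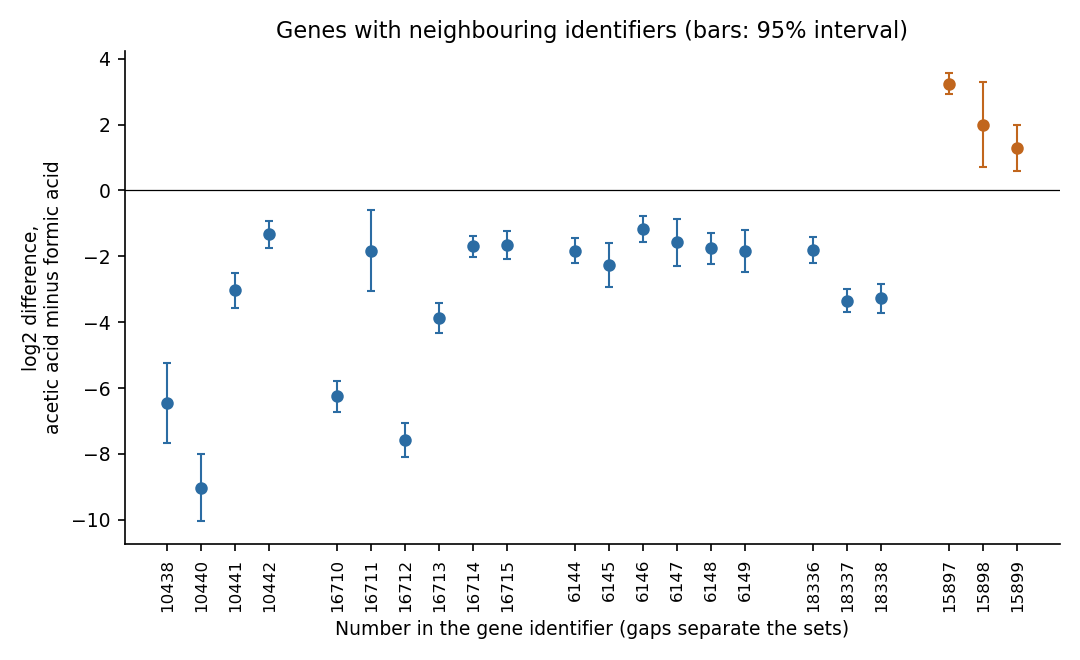
Points give the log2 difference, acetic acid minus formic acid, of genes with neighbouring identifier numbers, with 95% intervals as bars; gaps separate the 5 sets. In the leftmost set ARZ_10439_T1 was not tested and is not shown, so ARZ_10438_T1 is not consecutive with the others. The 4 sets on the left lie below 0, with the lowest values for ARZ_10440_T1 (−9.02) and ARZ_16712_T1 (−7.58), and the set at the right lies above 0.

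The furan and phenolic aldehyde experiments, with libraries and controls that the acid comparison did not use, showed how the same genes behaved elsewhere. Among genes at least 2-fold lower with acetic acid than with formic acid, 60 of 538 (11.2%) fell with 4-hydroxybenzaldehyde, against 5.22% of genes tested in both experiments, and 12 (2.23%) rose, against 3.20%. With vanillin 95 of them fell (17.7% against 10.9%) and 68 rose (12.6% against 8.94%). With syringaldehyde 103 fell (19.1% against 13.8%) and 90 rose (16.7% against 11.1%). These genes thus changed with vanillin, syringaldehyde and, as given below, both furans at shares above the background in both directions. The shares were not matched for level. The median level over the acid libraries was 13.3 CPM for all 543 of these genes and 22.0 CPM over all genes tested. For the 579 genes at least 2-fold higher with acetic acid it was 4.46 CPM. Whether level shifts the shares of either list was not tested. Of 514 tested with the furans, 51 fell with 5-hydroxymethylfurfural (9.92% against 3.46%) and 32 rose (6.23% against 5.02%), and with furfural 102 fell (19.8% against 17.0%) and 113 rose (22.0% against 17.4%). Their median log2 change was −0.16 with 4-hydroxybenzaldehyde, against 0.01 over all genes tested, and −0.12 to 0.00 with the other inhibitors. The furan shares depended on the minimum size. Without it, of 2195 genes lower with acetic acid, 583 fell with furfural (26.6% against 17.0%) and 420 rose (19.1% against 17.4%). With 5-hydroxymethylfurfural 132 fell (6.01% against 3.46%) and 111 rose (5.06% against 5.02%).

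Genes at least 2-fold higher with acetic acid were compared in the same way. Of 541 tested with the furans, 49 rose with 5-hydroxymethylfurfural (9.06% against 5.02%) and 24 fell (4.44% against 3.46%). With furfural 109 rose (20.1% against 17.4%) and 85 fell (15.7% against 17.0%). Of 561 tested with the phenolic aldehydes, 28 rose with 4-hydroxybenzaldehyde (4.99% against 3.20%) and 21 fell (3.74% against 5.22%). With vanillin 42 rose (7.49% against 8.94%) and 54 fell (9.63% against 10.9%), and with syringaldehyde 54 rose (9.63% against 11.1%) and 77 fell (13.7% against 13.8%). Within this 2-fold list the shares with vanillin and syringaldehyde were thus near or below the background in both directions. Without a minimum size this did not hold for genes that fell. Of 1956 such genes higher with acetic acid, 400 fell with syringaldehyde (20.4% against 13.8%) and 304 with vanillin (15.5% against 10.9%). Shares that rose stayed below the background, at 8.18% with syringaldehyde and 7.46% with vanillin. Single genes described above differed among inhibitors. ARZ_16712_T1, almost silent with acetic acid, fell with all 5: by log2 −4.91 with furfural, −2.93 with 5-hydroxymethylfurfural, −1.60 with 4-hydroxybenzaldehyde, −5.90 with syringaldehyde and −5.95 with vanillin. ARZ_16710_T1 also fell with all 5, from −1.23 with 4-hydroxybenzaldehyde to −5.90 with vanillin. Formic acid was thus the one compound of the series with which both were above the control. ARZ_17146_T1 rose with furfural (log2 1.65) and fell with vanillin (−1.66) and syringaldehyde (−1.27). ARZ_4922_T1 did likewise, with 1.16, −1.12 and −0.97. ARZ_9103_T1 fell with furfural (−2.55) and rose with syringaldehyde (2.04). All of these changes had edgeR quasi-likelihood adjusted p-values of at most 0.00281, and each passed the test without any 1 library of its groups, with at most 0.0412.

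**Figure D5:**
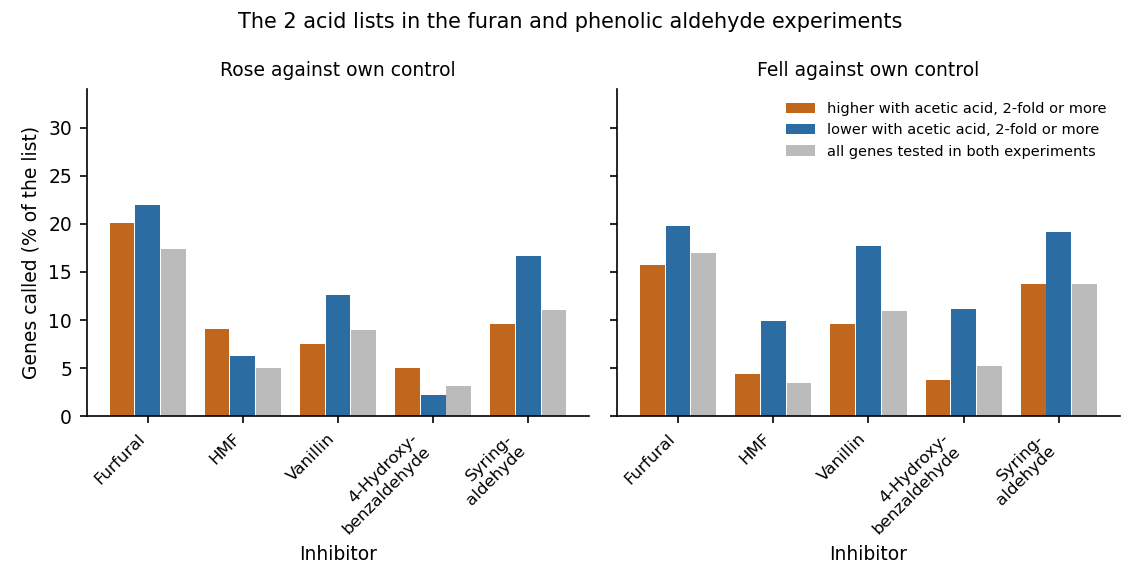
Bars give the percentage of genes that rose (left) or fell (right) against the inhibitor's own control among genes at least 2-fold higher (orange) or lower (blue) with acetic acid than with formic acid, and among all genes tested in both experiments (grey). The blue bar for genes that fell exceeds the grey one with every inhibitor, for example 11.2% against 5.22% with 4-hydroxybenzaldehyde. For genes that rose the blue bar also exceeds the grey one, except with 4-hydroxybenzaldehyde (2.23% against 3.20%).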

How the data were processed

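RNA of A. resinae ZN1 mycelia was extracted with Trizol and sequenced from Ion Proton RNA-Seq libraries, in duplicate, per the labels' protocols. The authors deposited whole-number read counts for 18830 identifiers in 3 tables, 1 per experiment. For both aligner and counter the name is not given in the sources used here. Sscrofa 10.2, named as a build in the submitters' processing notes, is a pig assembly and does not go with the identifiers.

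Genes were kept with edgeR's filterByExpr (16714; the 2116 left out held 0.0246% of reads), and CPM were computed on library sizes corrected by TMM (factors 0.955 to 1.03). One fit held the 6 weak acid libraries (edgeR 4.0.16 under R 4.3.3; two-sided quasi-likelihood F-test, robust). P-values were adjusted after Benjamini-Hochberg over all genes tested, with a threshold of 0.05. Adjusted p-values and calls are from this fit unless named otherwise. The other tables were fitted likewise, each on its own. The common biological coefficient of variation was 0.121. Standard errors and 95% intervals come from the F statistics; ratios of summed reads were corrected for TMM library size, and their intervals are exact and given where 1 acid had at most 20 reads. The scripts were tested on simulated data.

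Genes were named from 595 that differed at least 2-fold, had 10 CPM under 1 acid and did not overlap between acids. Taken from these in each direction were the 2 largest, the 2 largest at 500 CPM and the largest in each class of calls against the control. The gene with most reads where the other acid had 0, and the members of the longest sets of neighbouring identifiers, were named at any level. The comparison, lists and rules were chosen with earlier results of these data known. Alternatives were another scaling, other filters, DESeq2 1.42.0, other sets of libraries, a replicate block, and each library left out in turn, where the remaining library was given the spread of the other groups. Molar doses used rdkit 2024.09.2, and figures matplotlib 3.10.9.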

Additional observations from a re-analysis of the deposited data

How the results depend on the processing

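Of 4198 genes that differed, the count was 3537 to 4773 over the 7 alternative fits other than those leaving out 1 library, and 9380 to 9718 genes had an interval within 2-fold. With DESeq2, which gave no adjusted p for 973 genes, it was 3868, of which 3777 were shared. Under a filter of 10 CPM in 2 libraries 572 genes differed at least 2-fold, since fewer genes were tested (11748), and the test against a 2-fold difference gave 200. Leaving out 1 library gave 1669 to 4762 differing genes, 715 to 2286 higher and 954 to 2484 lower with acetic acid, 820 to 1163 differing at least 2-fold and 8636 to 9721 with an interval within 2-fold. With no minimum size, 30.2% of higher and 29.0% of lower genes had a neighbour in the same direction, against 20% and 22.8% of all genes tested. With the replicate number as a block 4336 genes differed; replicate deviations of acetic and formic acid correlated at 0.00 across genes (acetic acid and control 0.09, formic acid and control 0.17), and the labels do not say that numbers pair the libraries. Of 44 genes named or plotted, all kept their direction in every fit where they were tested, and 9 lost a call in at least 1; 5 of these are genes with at most 20 reads under 1 acid. Each of the 3 sets of 3 consecutive numbers higher with acetic acid holds at least 1 gene with at most 20 reads under 1 acid. All members of these sets except ARZ_5970_T1 and ARZ_15897_T1 lost a call in at least 1 fit. The 2 libraries per group and the low reads of genes under 1 CPM limit what can be shown there.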

Other observations

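The 2 largest differences in CPM, rather than in fold, in each direction were at genes abundant in every group. The genes given here were picked after their values were seen. ARZ_6463_T1 was at 4374 and 4355 CPM with acetic acid, 13172 and 13630 CPM with formic acid and 1848 and 2456 CPM in the control. ARZ_6462_T1, numbered next to it, was at 39.6 and 41.6 CPM, 364 and 446 CPM, and 1.59 and 1.96 CPM in the same order. Both rose with each acid and were higher with formic acid than with acetic acid, 3.07-fold (95% interval 2.28 to 4.13) and 9.96-fold (7.91 to 12.6). ARZ_11002_T1, numbered next to ARZ_11003_T1, was at 1677 and 1806 CPM with acetic acid, 5993 and 6866 CPM with formic acid and 559 and 841 CPM in the control. In these 3 genes the control was lowest, acetic acid intermediate and formic acid highest, with no overlap of libraries. All 3 rose with furfural as well, by log2 1.01, 1.88 and 1.44 (highest edgeR quasi-likelihood adjusted p = 0.00237, and 0.0304 with any 1 library of those groups left out). ARZ_11003_T1 did not pass the test with furfural (log2 0.74, edgeR quasi-likelihood adjusted p = 0.165). Among the other inhibitors, ARZ_11002_T1 fell with syringaldehyde (−0.66). ARZ_6463_T1 rose with 5-hydroxymethylfurfural (0.57, and 0.44 without furan control replicate 1). In the other direction, ARZ_10899_T1 was at 4046 and 3157 CPM with acetic acid, 1520 and 1619 CPM with formic acid and 5389 and 3567 CPM in the control. ARZ_2394_T1 was at 3911 and 3033 CPM, 1428 and 1571 CPM, and 4304 and 3021 CPM. Their acetic acid and control libraries overlapped, and formic acid lay below both.

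Genes with no read under 1 acid were few and of low level. Of all 18830 identifiers, 552 had no read in any acid library. Under acetic acid another 133 had 0 reads in both libraries but a read with formic acid. Under formic acid 285 had 0 reads in both libraries but a read with acetic acid. None in either set reached 20 reads under the other acid. The one with the most reads with formic acid, ARZ_13157_T1, had 10 and 6 and was at least 5.01-fold higher than with acetic acid, against a floor of 3 reads over both libraries and corrected for library size. ARZ_8080_T1 had 11 and 4 reads with acetic acid, at least 5.32-fold more than with formic acid. Neither gene passed the filter on low counts, so neither was tested.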
